A study of Mus musculus with 18 samples.

Results

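The 10 circadian clock output genes described here were Per1, Per2, Per3, Cry1, Clock, Nr1d1, Nr1d2, Dbp, Tef and Ciart, matched by symbol to the 16925 genes of the authors' CPM table. All 10 were found there, 9 of them had reads, and 1, Per3, was listed at 0 in every library. They were followed across bulk poly(A)+ RNA-seq of the peritumoral brain tissue resected around metastases in 18 mice, 6 brains for each of 3 models. The melanoma model was made with B16-F10-BrM4 cells, the breast cancer model with EO771-BrM3 cells and the lung cancer model with 482N1 cells, so each model stands on 1 cell line. In all 3 models the mice carried the genotype WT, received 40000 tumour cells and were killed on day 10. No tumour-free brain was in the series, and the labels name no strain, sex, age or hour of collection. The libraries carry the numbers 1 to 6 in melanoma, 14 to 19 in breast, and 7 to 11 and 13 in lung.

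The circadian clock is a transcriptional loop that runs in nearly every mammalian cell. CLOCK or NPAS2 pairs with BMAL1, the product of Arntl, and the pair switches on genes with E-boxes in their promoters, among them Per, Cry, Nr1d1, Dbp and Ciart. PER and CRY proteins then block the pair, and the nuclear receptors encoded by Nr1d1 and Nr1d2 (REV-ERB alpha and beta) hold Arntl, Clock, Nfil3 and Cry1 down for part of the day. In most mouse tissues kept under light and dark, Nr1d1 and Dbp peak during the day, Per genes near dusk, and Arntl, Npas2, Clock and Cry1 late at night or near dawn. A set of libraries taken at another hour could therefore show day genes and late-night genes moving in opposite directions. Not every pair of hours would do so, and like levels do not show a like hour. The question asked of these genes was whether any model or library showed such movement.

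The libraries held 7366250 to 14533877 counts, with breast 18 and breast 19 the shallowest at 7366250 and 7432159. These 2 libraries and melanoma 3 stood apart from the other 15 in being poor in long transcripts. The slope of log2 CPM on log2 exon length, taken against the mean of all libraries, was -0.19 in melanoma 3, -0.23 in breast 18 and -0.19 in breast 19, against -0.11 to 0.16 in the others. Calls of clock genes that change without these 3 libraries are given with and without them. Neuron, astrocyte, oligodendrocyte, microglia and endothelium markers were read in every model, which matches the brain label. Melanocyte markers (5 genes) summed to 3446 to 21949 CPM in melanoma libraries, 1.27 to 7.72 CPM in breast libraries and 1.49 to 3.99 CPM in lung libraries. Epithelial markers (4 genes) summed to 4.54 to 5.70 CPM in melanoma, 66.2 to 166.5 CPM in breast and 261.9 to 1172 CPM in lung. In bulk tissue, fewer cells of a type and less RNA per cell cannot be told apart.

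With 9 clock output genes tested, the counts that follow are too small to set these genes apart from all genes. Against lung, 0 of the 9 tested members changed in melanoma, where 23.2% of all 17174 genes tested did, 8.51% higher and 14.7% lower (edgeR's quasi-likelihood test, Benjamini-Hochberg adjusted p under 0.05). In breast against lung 1 of 9 changed, Cry1, which rose, where 18.3% of all genes changed, 11.2% higher and 7.16% lower. In melanoma against breast 2 of 9 changed, Tef, which rose, and Cry1, which fell, where 28.9% of all genes changed, 9.76% higher and 19.2% lower. In a single test of any difference among the 3 models 2 of 9 members passed, Tef and Cry1, where 35.8% of all genes did. The median log2 fold change of the 9 members was 0.05 in melanoma over lung, -0.16 in breast over lung and -0.03 in melanoma over breast, beside 0.02, -0.02 and 0.04 for all genes tested. The counts are small and move with the fit: without the 3 libraries poor in long transcripts 1, 2 and 2 of the 9 members changed in melanoma over lung, breast over lung and melanoma over breast. With the trend of log2 CPM on exon length removed, 3 of 9 changed in breast over lung. Among the 17157 genes with an exon length, 3598 did so. In melanoma over breast Tef, Cry1 and Clock passed in that fit (edgeR adjusted p = 0.0257, 0.00573 and 4.02e-05). The share of all genes changed without the 3 libraries is not given here. Over all 32 refits, these included, 1897 to 5845 genes changed in melanoma over lung and 1053 to 4357 in breast over lung. In melanoma over breast 2218 to 8078 did.

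**Figure D1:**
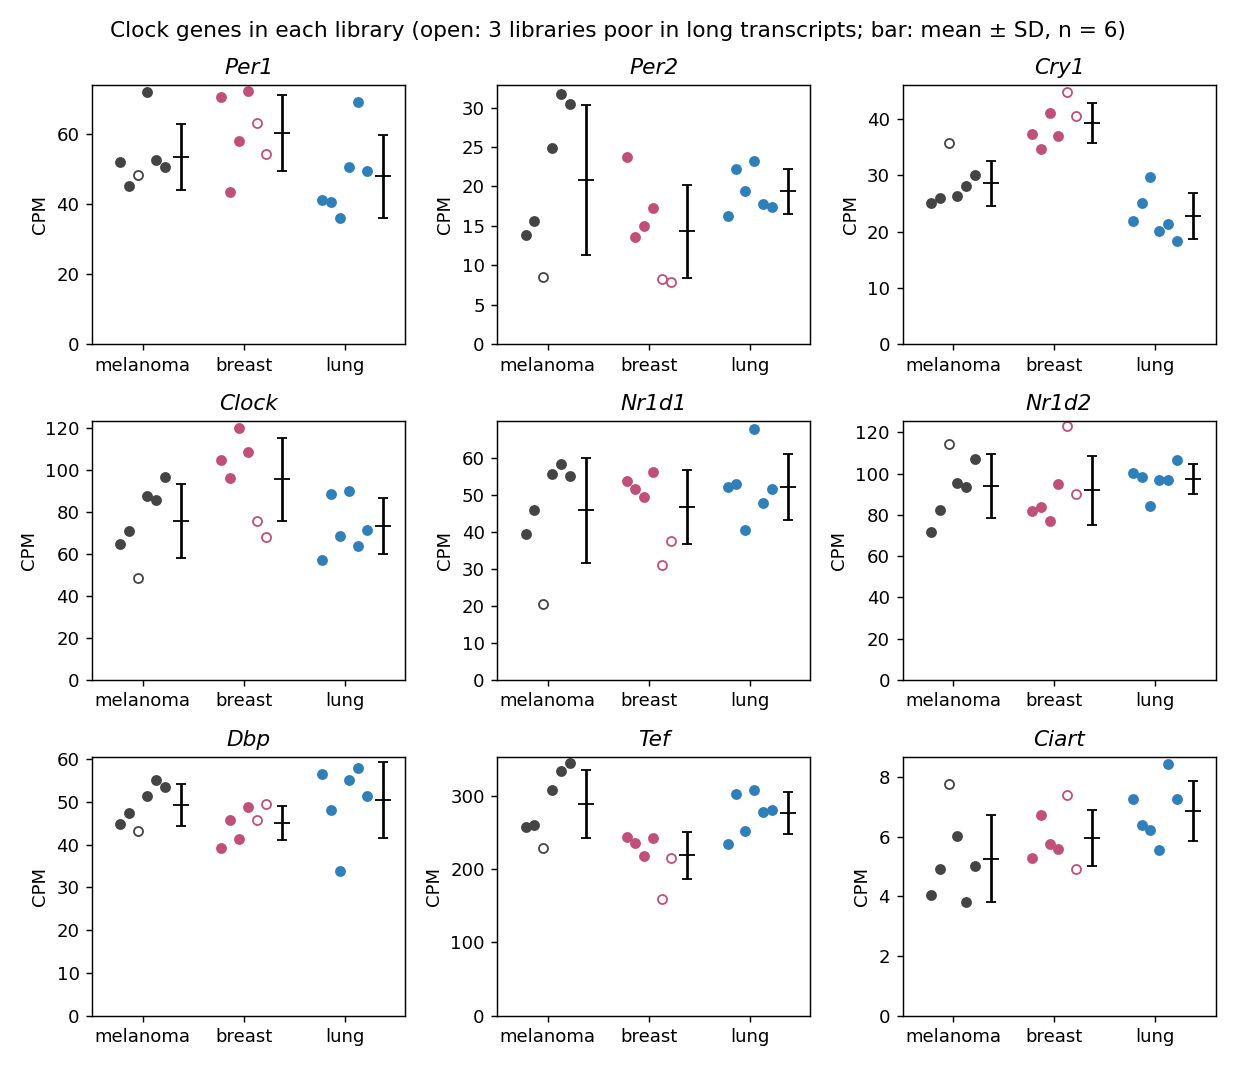
CPM of the 9 clock output genes with reads (y axis, on TMM-scaled library sizes) in each of 18 libraries, grouped by model on the x axis; open circles are melanoma 3, breast 18 and breast 19, and the bars are the mean ± SD of 6 libraries. Cry1 is the gene whose breast libraries (34.7 to 44.7 CPM) all lie above the lung libraries (18.3 to 29.6 CPM), while the models overlap for the others.

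Cry1 encodes a cryptochrome, the repressor that acts with PER proteins on CLOCK and BMAL1. In melanoma libraries it had a lowest value of 25.0 CPM, a median of 27.2 CPM and a highest of 35.7 CPM. In breast libraries the lowest, median and highest were 34.7, 39.0 and 44.7 CPM, and in lung libraries 18.3, 21.6 and 29.6 CPM. Every breast library was above every lung library, a separation that 14.9% of all genes showed between these models, and melanoma lay between them, with melanoma 3 above the lowest breast library. Cry1 rose in breast over lung by a log2 fold change of 0.79 ± 0.12 (SE; 39.3 ± 3.58 CPM in breast and 22.7 ± 4.06 CPM in lung, SD, n = 6 each; edgeR adjusted p = 0.000101). It fell in melanoma over breast by 0.46 ± 0.12 on the log2 scale (28.5 ± 3.96 CPM in melanoma; edgeR adjusted p = 0.00736). Melanoma over lung gave 0.33 ± 0.12 and did not pass (edgeR adjusted p = 0.0626), though it did without melanoma 4 (0.43, adjusted p = 0.0283) or without lung 9 (0.42, adjusted p = 0.0140), and with the length trend removed (0.34, adjusted p = 0.0397), among 6 of 32 refits in all. Without the 3 libraries poor in long transcripts the change was 0.66 in breast over lung and -0.40 in melanoma over breast, and both still passed (edgeR adjusted p = 0.000542 and 0.0178). Against a 1.5-fold threshold neither change of Cry1 passed (adjusted p = 0.204 in breast over lung and 1 in melanoma over breast).

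Cell type markers were read in the same comparisons. Of all genes tested 18.3% changed in breast over lung, 7.16% lower, and 28.9% in melanoma over breast, 19.2% lower. In breast over lung 1 of 6 neuron markers fell (sums of 2229 to 3683 CPM in breast and 3456 to 4911 CPM in lung) and 3 of 4 epithelial markers fell, while 0 of 4 microglia markers changed. In melanoma over breast 3 of 4 microglia markers and 2 of 4 astrocyte markers fell, with microglia sums of 135.0 to 216 CPM in melanoma and 452 to 689 CPM in breast. None of these markers was at 0 reads in any model, and their part in the Cry1 differences was not tested.

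Clock was also at its highest in breast, without passing the test. It encodes the partner of BMAL1. It had a lowest value of 48.3 CPM, a median of 78.2 CPM and a highest of 96.4 CPM in melanoma libraries. Breast libraries had 68.1, 100.3 and 119.8 CPM, and lung libraries 57.2, 69.8 and 89.7 CPM, in the same order. Breast 14 to 17 (95.9 to 119.8 CPM) were above every lung library. Breast 18 and breast 19, poor in long transcripts, were inside the lung range at 75.6 and 68.1 CPM. Clock changed by 0.38 ± 0.17 in breast over lung, with a 95% interval of 0.02 to 0.75 (edgeR adjusted p = 0.146), by -0.34 ± 0.17 in melanoma over breast (adjusted p = 0.159) and by 0.05 ± 0.17 in melanoma over lung (adjusted p = 0.895). Its exons span 13727 bases, the longest among the members. Without the 3 libraries poor in long transcripts its change in breast over lung was 0.49 ± 0.14 and passed (edgeR adjusted p = 0.0176), and with the length trend removed by an offset per library and gene it passed in breast over lung (0.46, adjusted p = 0.000794) and in melanoma over breast (-0.58, adjusted p = 4.02e-05).

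For Cry1 and Tef, the members that changed, and for Dbp, the member with the smallest spread over the 18 libraries, the RefSeq promoters of build GRCm38.p6 are shown from 250 bases before to 50 bases after the annotated start, read on the gene's strand. Capitals mark an E-box (CACGTG) or an E-prime box (CACGTT, or AACGTG on the other strand), the letters that CLOCK and BMAL1 are known to bind. The regions are chr10:85185005-85185304 on the minus strand for Cry1, chr15:81802423-81802722 and chr15:81811164-81811463 on the plus strand for the 2 starts of Tef, and chr7:45704997-45705296 on the plus strand for Dbp.
Cry1: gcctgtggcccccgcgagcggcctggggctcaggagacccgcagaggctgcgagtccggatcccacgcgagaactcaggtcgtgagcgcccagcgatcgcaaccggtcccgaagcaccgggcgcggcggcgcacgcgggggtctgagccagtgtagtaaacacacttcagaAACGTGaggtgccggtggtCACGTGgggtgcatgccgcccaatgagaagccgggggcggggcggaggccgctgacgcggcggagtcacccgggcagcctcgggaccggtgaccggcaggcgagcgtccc
Tef, start 1: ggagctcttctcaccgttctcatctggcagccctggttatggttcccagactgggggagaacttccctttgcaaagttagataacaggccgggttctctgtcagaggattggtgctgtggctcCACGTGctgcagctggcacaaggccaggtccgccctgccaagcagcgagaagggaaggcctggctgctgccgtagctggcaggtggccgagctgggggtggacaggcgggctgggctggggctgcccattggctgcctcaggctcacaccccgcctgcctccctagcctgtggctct
Tef, start 2: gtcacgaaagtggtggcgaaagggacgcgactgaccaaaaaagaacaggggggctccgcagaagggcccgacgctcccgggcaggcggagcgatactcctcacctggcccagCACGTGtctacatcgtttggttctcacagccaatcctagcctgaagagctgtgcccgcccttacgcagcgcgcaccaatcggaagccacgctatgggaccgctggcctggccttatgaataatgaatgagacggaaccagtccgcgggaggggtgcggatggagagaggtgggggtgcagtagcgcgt
Dbp: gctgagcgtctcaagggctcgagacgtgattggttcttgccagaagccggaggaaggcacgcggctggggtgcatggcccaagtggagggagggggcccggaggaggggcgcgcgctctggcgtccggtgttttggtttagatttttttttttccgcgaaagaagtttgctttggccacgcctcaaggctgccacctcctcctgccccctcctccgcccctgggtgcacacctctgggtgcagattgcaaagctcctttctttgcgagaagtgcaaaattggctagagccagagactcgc
Cry1 had 1 E-box at -60 from the start and 1 E-prime box, the Tef starts had 1 E-box each, at -127 and -138, and Dbp had neither in this window. RefSeq promoters were matched for 9 of the 10 members, Per2 being the one without, and 13 promoters were read in all. An E-box stood in 5 of these 13, which belonged to 4 genes (Per1, Cry1, Tef and Ciart, the last with 3 E-boxes), against 7.15% of the 32851 promoters in the table, and an E-prime box in 2 of 13 (Cry1 and Nr1d1), against 4.68%. The D-box (TTANGTAA, bound by DBP and TEF) was in 1 of 13, that of Per3, against 2.32% of all promoters. The binding letters of ROR and REV-ERB receptors (AGGTCA) were in 3 of 13 against 16.3%, and the core of the cAMP response element (TGACG) in 3 of 13 against 20.8%. All motifs were searched on both strands, AGGTCA and TGACG can share bases with an E-box, and a match is a description of letters, not evidence of binding.

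Dbp and Tef encode PAR bZIP factors that pass the clock's rhythm on to genes with D-boxes, and Dbp has one of the largest daily swings of any mouse transcript. Dbp differed little from brain to brain. Its lowest, median and highest values were 43.2, 49.4 and 55.2 CPM in melanoma, 39.2, 45.8 and 49.4 CPM in breast, and 33.8, 53.2 and 57.9 CPM in lung. The models overlapped, with lung 9 lowest of all 18 libraries and lung 11 highest. Dbp changed by -0.03 ± 0.12 in melanoma over lung (95% interval -0.28 to 0.22; edgeR adjusted p = 0.885), by -0.16 ± 0.12 in breast over lung (-0.41 to 0.09; adjusted p = 0.402) and by 0.13 ± 0.12 in melanoma over breast (-0.12 to 0.38; adjusted p = 0.437). Across all 18 libraries the highest Dbp value was 1.71 times the lowest, and 12.7% of the 13226 genes with at least 5 CPM had a smaller SD of log2 CPM.

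Tef was the most abundant member per kilobase of exon, with 36.7 CPM per kilobase in melanoma, 27.8 in breast and 35.0 in lung. In melanoma libraries it had a lowest value of 228 CPM, a median of 283 CPM and a highest of 344 CPM. In breast libraries the values were 158, 226 and 244 CPM, and in lung libraries 234, 279 and 308 CPM. Breast libraries were mostly below the others, with breast 18 lowest by far, but melanoma 3 and lung 7 were inside the breast range. Tef rose in melanoma over breast by 0.40 ± 0.13 (288 ± 46.6 CPM in melanoma and 219 ± 32.0 CPM in breast, SD, n = 6 each; edgeR adjusted p = 0.0229), a call that held without the 3 libraries poor in long transcripts (0.42, adjusted p = 0.00942) and was lost when the 12 libraries of these models were fitted alone (adjusted p = 0.0638) or against a 1.5-fold threshold (adjusted p = 1). Tef changed by -0.33 ± 0.13 in breast over lung (edgeR adjusted p = 0.0786) and by 0.06 ± 0.13 in melanoma over lung (adjusted p = 0.787). The breast over lung change passed without melanoma 3 (adjusted p = 0.0220), melanoma 5 (0.0391) or melanoma 6 (0.0342), libraries that enter it through the shared estimate of spread and scaling, and with the length trend removed (-0.29, adjusted p = 0.0214), among 8 of 32 refits in all. In melanoma over breast 1 of 6 neuron markers rose, where 9.76% of all genes did. Neuron marker sums were 2800 to 5806 CPM in melanoma and 2229 to 3683 CPM in breast. None of these markers was at 0 reads, and their part in the Tef difference was not tested.

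**Figure D2:**
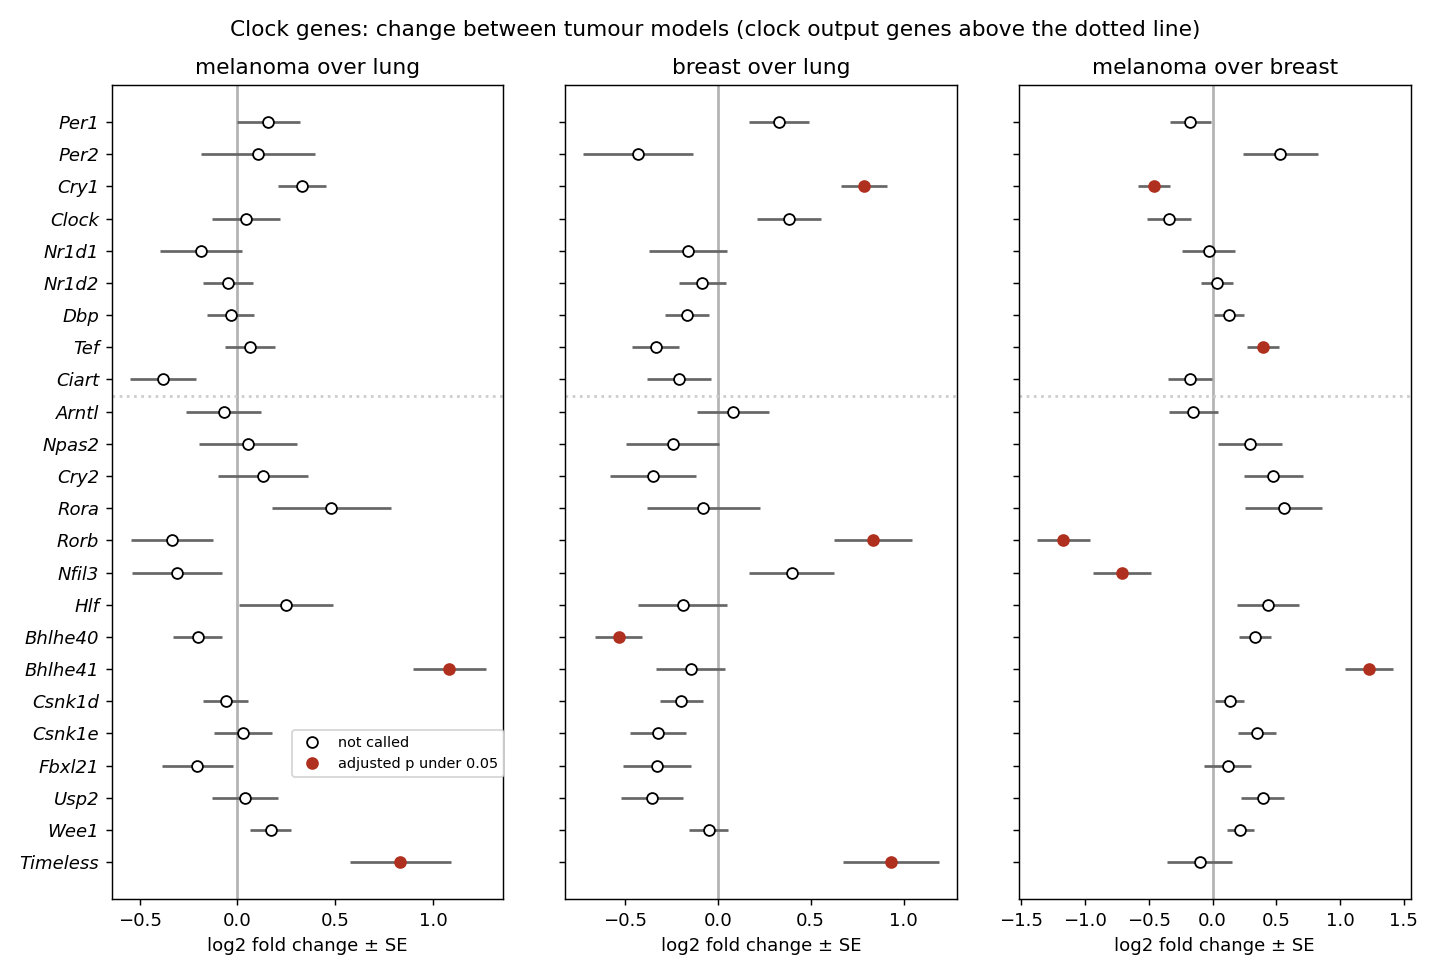
Log2 fold change ± SE (x axis) of the 9 clock output genes with reads, above the dotted line, and 15 other clock genes, below it, for melanoma over lung, breast over lung and melanoma over breast; filled points passed an adjusted p of 0.05 in edgeR's quasi-likelihood test. Among the clock output genes the filled points are Cry1 in breast over lung (0.79) and in melanoma over breast (-0.46) and Tef in melanoma over breast (0.40).

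Nr1d1 and Nr1d2 encode the REV-ERB receptors, and neither changed in any comparison. Nr1d1 had a lowest value of 20.6 CPM, a median of 50.5 CPM and a highest of 58.4 CPM in melanoma, against 31.0, 50.5 and 56.2 CPM in breast and 40.5, 51.9 and 67.6 CPM in lung. The lowest values were those of melanoma 3, breast 18 and breast 19 (37.5 CPM), all in libraries poor in long transcripts, and the other 15 libraries spanned 1.72-fold. Nr1d1 changed by -0.19 ± 0.21 in melanoma over lung (edgeR adjusted p = 0.606), -0.16 ± 0.21 in breast over lung (adjusted p = 0.669) and -0.03 ± 0.21 in melanoma over breast (adjusted p = 0.931). Nr1d2 had 71.6, 94.5 and 114 CPM in melanoma, 76.8, 87.0 and 123 CPM in breast, and 84.3, 97.7 and 106 CPM in lung. Its changes were -0.05 ± 0.13, -0.08 ± 0.13 and 0.04 ± 0.13 in melanoma over lung, breast over lung and melanoma over breast (adjusted p = 0.846, 0.717 and 0.856). Per kilobase of exon the paralogues stood close together, Nr1d1 at 14.9, 15.1 and 16.9 CPM and Nr1d2 at 17.4, 16.98 and 17.97 CPM in melanoma, breast and lung.

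The paralogues parted in the 3 libraries poor in long transcripts. The ratio of Nr1d2 to Nr1d1 reads was 5.54 in melanoma 3, 3.96 in breast 18 and 2.40 in breast 19, and 1.43 to 2.08 in the other 15 libraries. Nr1d2, the higher of the pair in these libraries, was also the longer, with 5409 bases of exon against 3077 for Nr1d1. They differed in base composition too, 41.8% GC in the longest transcript of Nr1d2 and 56.8% in that of Nr1d1. The slope of log2 CPM per 10 percentage points of GC was -0.17 in melanoma 3, -0.15 in breast 18 and -0.02 in breast 19, against -0.03 to 0.08 in the others, and the part of either trend in the ratio was not tested.

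Per1 and Per2 encode the PERIOD repressors, and Per1 is also an immediate target of CREB and of the glucocorticoid receptor. Per1 had a lowest value of 45.1 CPM, a median of 51.1 CPM and a highest of 71.9 CPM in melanoma, against 43.3, 60.5 and 72.1 CPM in breast and 35.9, 45.3 and 69.1 CPM in lung. The models overlapped over most of their range, with melanoma 4 and lung 11 each well above the rest of its model. Per1 changed by 0.16 ± 0.16 in melanoma over lung (edgeR adjusted p = 0.572), 0.33 ± 0.16 in breast over lung (adjusted p = 0.182) and -0.17 ± 0.16 in melanoma over breast (adjusted p = 0.438). Per2 was the most variable member. It had 8.54, 20.3 and 31.7 CPM in melanoma, 7.92, 14.3 and 23.7 CPM in breast, and 16.2, 18.6 and 23.2 CPM in lung, as lowest, median and highest. Its 3 lowest values were those of melanoma 3, breast 18 and breast 19 (8.25 CPM in breast 18), and its 3 highest were those of melanoma 4, 5 and 6 (24.9, 31.7 and 30.5 CPM). Per2 changed by 0.10 ± 0.29 in melanoma over lung (95% interval -0.51 to 0.72; edgeR adjusted p = 0.856), -0.43 ± 0.30 in breast over lung (-1.05 to 0.19; adjusted p = 0.370) and 0.53 ± 0.30 in melanoma over breast (-0.09 to 1.15; adjusted p = 0.192), the last of which passed without melanoma 3 (0.75, adjusted p = 0.0253).

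Per3 was listed at 0 in both tables in all 18 libraries. Transcripts that brain cells use, mt-Co3, mt-Atp6 and Mrps6, were also listed at 0, as were Irf8 and Slc5a3, so the 0 of Per3 cannot be read as absence of its RNA and no fold change was formed.

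Ciart encodes CHRONO, a further repressor of CLOCK and BMAL1, and was the least abundant of the members with reads. It had a lowest value of 3.80 CPM, a median of 4.97 CPM and a highest of 7.76 CPM in melanoma, against 4.91, 5.68 and 7.41 CPM in breast and 5.56, 6.82 and 8.46 CPM in lung. The melanoma libraries were mostly low, but melanoma 3 was above 5 of the 6 lung libraries. Ciart changed by -0.38 ± 0.17 in melanoma over lung (95% interval -0.74 to -0.02; edgeR adjusted p = 0.127), -0.21 ± 0.17 in breast over lung (adjusted p = 0.467) and -0.17 ± 0.17 in melanoma over breast (adjusted p = 0.468). Without melanoma 3 the melanoma over lung change was -0.52 and passed (adjusted p = 0.0174), as it did without all 3 libraries poor in long transcripts (-0.52 ± 0.14, adjusted p = 0.0113).

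The spread between brains differed among members. The highest of 18 libraries exceeded the lowest 1.71-fold for Dbp, 1.72-fold for Nr1d2, 2.01-fold for Per1, 2.17-fold for Tef, 2.22-fold for Ciart, 2.44-fold for Cry1, 2.48-fold for Clock, 3.28-fold for Nr1d1 and 4.005-fold for Per2. The median of the 13226 genes with at least 5 CPM was 2.50-fold, and 7 of the 9 members lay under it. In the 15 libraries left without melanoma 3, breast 18 and breast 19 the median of all such genes was 1.96-fold. Only 4 of the 9 members lay under it, Nr1d2 (1.497), Tef (1.58), Dbp (1.71) and Nr1d1 (1.72). Per1 (2.01), Clock (2.09), Ciart (2.22), Cry1 (2.24) and Per2 (2.33) lay above it. Dbp was thus the least variable member over 18 libraries, by a small margin over Nr1d2, and not over these 15.

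To read phase within each library, the mean log2 CPM of 5 day genes (Dbp, Nr1d1, Nr1d2, Ciart and Tef) and of 4 late-night genes (Arntl, Npas2, Clock and Cry1) was taken relative to its mean over the 18 libraries. Day genes stood at -0.25 to 0.16 in melanoma, -0.17 to 0.03 in breast and -0.16 to 0.20 in lung. Late-night genes stood at -0.53 to 0.38 in melanoma, -0.23 to 0.38 in breast and -0.29 to 0.12 in lung. Within melanoma the sums moved the same way, both low in libraries 1 to 3 and both high in libraries 4 to 6. Lung 7, 11 and 13 had day genes high (0.13, 0.20 and 0.17) and late-night genes low (-0.29, -0.14 and -0.24), and breast 14 and 16 had the opposite pattern (-0.10 and -0.14 against 0.31 and 0.38). Slopes on exon length were -0.11, -0.06 and -0.01 in lung 7, 11 and 13, and 0.05 and 0.02 in breast 14 and 16. In lung 8, 9 and 10, where both sums moved the same way, they were 0.09, -0.10 and 0.12. Melanoma 1 to 3 had slopes of 0.05, 0.07 and -0.19 and neuron marker sums of 2800 to 3692 CPM. Melanoma 4 to 6 had slopes of 0.15 to 0.16 and sums of 5091 to 5806 CPM. The part of these values in the patterns was not tested.

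**Figure D3:**
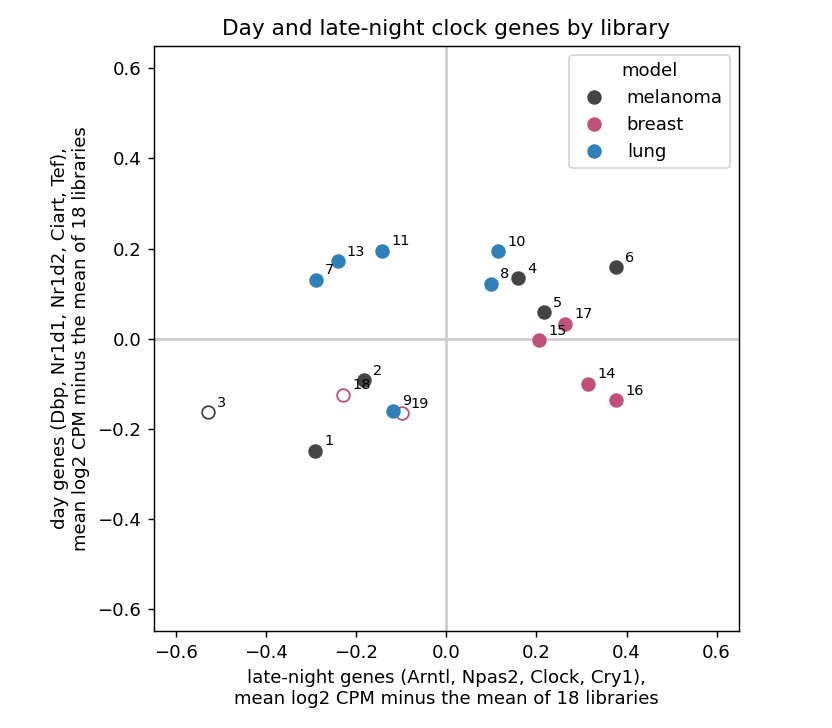
Mean centred log2 CPM of 5 day genes (y axis) against that of 4 late-night genes (x axis), 1 point per library with its number, coloured by model; open circles are the 3 libraries poor in long transcripts. Melanoma libraries run from lower left to upper right, breast 14 and 16 lie at the lower right, and lung 7, 11 and 13 lie at the upper left.

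The difference between these sums, day minus late night, averaged 0.02 ± 0.21 in melanoma, -0.22 ± 0.22 in breast and 0.21 ± 0.21 in lung (log2 units, SD, n = 6 each), with no test made because members enter both sums. Breast values ran from -0.51 to 0.10 and lung values from -0.04 to 0.42. The overlap rested on breast 18 (0.10), which is poor in long transcripts. Every other breast library was below every lung library, though breast 19 (-0.07) was close to lung 9 (-0.04). The mean difference was -0.19 in melanoma over lung, -0.43 in breast over lung and 0.24 in melanoma over breast, beside a spread within models of 0.21 (SD). Without the 3 libraries poor in long transcripts the differences were -0.26, -0.55 and 0.29. With Arntl and Npas2 alone as the late-night genes, leaving out Cry1 and Clock, they were -0.06, -0.08 and 0.02 over all 18 libraries. Breast 18 and breast 19 were below the mean in both genes (centred Arntl -0.50 and -0.05, Npas2 -0.96 and -0.60). In breast 14 to 17 Arntl stood at 0.17 to 0.35 and Npas2 at -0.09 to 0.33. No value with Arntl and Npas2 alone is given without the 3 libraries. Over all 18 libraries the breast over lung difference was thus -0.43 with Cry1 and Clock and -0.08 without them. How far it rested on these genes without the 3 libraries was not computed. The labels give no hour of collection and the library numbers run by model, so an hour of collection that differed between models and the models themselves cannot be told apart.

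Ratios between clock genes in the same library are free of the scaling between libraries. Dbp over Arntl was 1.29 to 2.50 in melanoma, 1.03 to 2.02 in breast and 1.25 to 1.92 in lung, and Nr1d1 over Arntl was 1.20 to 1.68, 1.21 to 1.48 and 1.38 to 1.78 in the same models. Both overlapped among all models, and the highest Dbp over Arntl values of melanoma and breast came from melanoma 3 and breast 18. Dbp over Cry1 had medians of 1.81 in melanoma, 1.13 in breast and 2.65 in lung, and lung 9, at 1.14, fell among the breast libraries. Per2 over Cry1 was 0.239 to 1.13 in melanoma (median 0.774), 0.184 to 0.634 in breast (median 0.378) and 0.654 to 1.16 in lung (median 0.858). No breast library reached the lung range for that ratio, though breast 14 and lung 9 were close to each other, and melanoma spanned both. Cry1 alone already separated breast from lung, and no share over other pairs of genes was formed. The lowest ratios, 0.184 in breast 18, 0.195 in breast 19 and 0.239 in melanoma 3, came from the libraries poor in long transcripts.

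**Figure D4:**
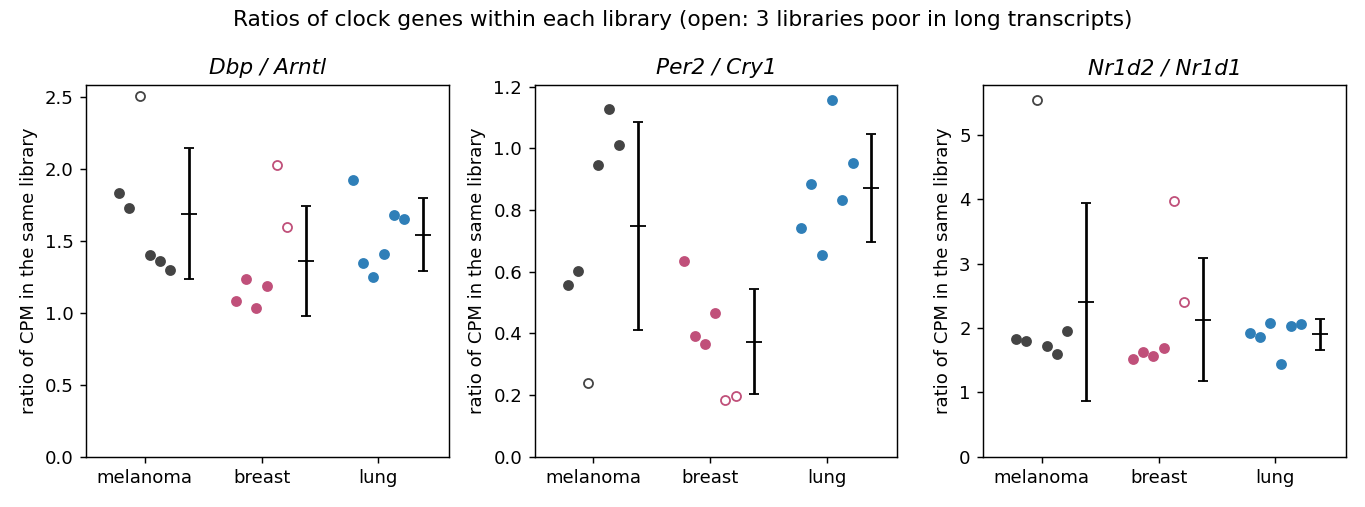
Ratios of the CPM of 2 clock genes within each library (y axis, no unit) by model; open circles are the 3 libraries poor in long transcripts, and the bars are the mean ± SD of 6 libraries. Per2 over Cry1 is at most 0.634 in breast and at least 0.654 in lung, and Nr1d2 over Nr1d1 is 5.54 in melanoma 3, 3.96 in breast 18 and 2.40 in breast 19.

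Among 15 other genes of the clock, 2 rose and 0 fell in melanoma over lung, and 2 rose and 1 fell in breast over lung. In melanoma over breast 1 rose and 2 fell (edgeR, same threshold), and 4 of 15 differed in the single test among models. Of all genes tested, 23.2%, 18.3% and 28.9% changed in these comparisons, and 35.8% differed in the single test. Arntl, whose product pairs with CLOCK, and Npas2, whose product can stand in for CLOCK, passed in none of the 3 comparisons. Arntl averaged 31.3 ± 9.76 CPM in melanoma, 34.7 ± 6.88 CPM in breast and 32.8 ± 4.48 CPM in lung, and Npas2 25.2 ± 9.90, 20.4 ± 6.28 and 24.3 ± 4.72 CPM (SD, n = 6 each). Cry2, the second cryptochrome, averaged 87.5 ± 26.5, 62.7 ± 19.3 and 80.0 ± 14.1 CPM in melanoma, breast and lung. Its change in breast over lung was -0.35 ± 0.23 (edgeR adjusted p = 0.349), where that of Cry1 was 0.79. Cry2 changed by 0.48 in melanoma over breast (adjusted p = 0.135), and passed without melanoma 3 (0.67, adjusted p = 0.0106) and without the 3 libraries poor in long transcripts (0.45, adjusted p = 0.0342).

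Rora and Rorb encode ROR receptors, which activate the sites that REV-ERB receptors repress. Rorb, known from cortex and retina, had 6.03 to 16.2 CPM in melanoma, 22.2 to 35.3 CPM in breast and 10.2 to 17.98 CPM in lung. Every breast library was above every library of the other models, as 14.9% of all genes showed without overlap against lung and 17.1% between melanoma and breast. Rorb rose in breast over lung by 0.84 ± 0.21 (edgeR adjusted p = 0.00753) and fell in melanoma over breast by 1.17 ± 0.21 (adjusted p = 0.000237). Rora averaged 59.4, 40.2 and 42.6 CPM in melanoma, breast and lung and passed in none of the 3 comparisons (edgeR adjusted p = 0.314 in melanoma over lung, 0.898 in breast over lung, 0.185 in melanoma over breast). Its melanoma over lung change, 0.48, was 0.66 without the 3 libraries poor in long transcripts and passed (adjusted p = 0.0282), and its melanoma over breast change, 0.56, was 0.78 without melanoma 3 and passed (adjusted p = 0.0200).

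Bhlhe40 and Bhlhe41 encode DEC1 and DEC2, which compete for E-boxes. Bhlhe41 had 90.6 to 214 CPM in melanoma, 43.9 to 71.7 CPM in breast and 54.5 to 71.1 CPM in lung, with no overlap of melanoma and the others (14.3% of all genes showed none between melanoma and lung). It rose by 1.08 ± 0.19 in melanoma over lung and 1.23 ± 0.19 in melanoma over breast (edgeR adjusted p = 0.000188 and 4.06e-05). Bhlhe41 was 214, 172, 118, 112, 99.1 and 90.6 CPM in melanoma 1 to 6, and melanocyte markers summed to 14060, 12667, 21949, 6698, 4289 and 3446 CPM in the same libraries. Melanoma 3, with the highest sum of markers, had a Bhlhe41 level close to that of melanoma 4, and the other 5 libraries had the same order in both. All 5 melanocyte markers rose in melanoma over both other models, where 8.51% (over lung) and 9.76% (over breast) of all genes did. None of these markers was at 0 reads in any model, and their part in the Bhlhe41 differences was not tested. Bhlhe40 averaged 112 ± 13.9 CPM in melanoma, 89.4 ± 18.3 CPM in breast and 129 ± 8.55 CPM in lung, and fell by 0.53 ± 0.13 in breast over lung (edgeR adjusted p = 0.00505). Bhlhe40 changed by 0.33 in melanoma over breast (adjusted p = 0.0569), close to the threshold, and passed in 15 of 32 refits, among them that without the 3 libraries poor in long transcripts (0.31, adjusted p = 0.0245).

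Timeless, which acts mainly at replication forks in mammals, had 11.9 to 38.9 CPM in melanoma, 19.4 to 33.8 CPM in breast and 10.54 to 15.9 CPM in lung. It rose by 0.83 ± 0.26 in melanoma over lung (edgeR adjusted p = 0.0237) and by 0.93 ± 0.26 in breast over lung (adjusted p = 0.0158). The melanoma over lung call was lost without melanoma 1 (adjusted p = 0.0748), melanoma 2 (0.0763) or lung 10 (0.0524). Proliferation markers (Mki67, Top2a and Mcm2) summed to 137 to 676 CPM in melanoma, 231 to 383 CPM in breast and 129 to 235 CPM in lung. Of these 1 of 3 rose in melanoma over lung, where 8.51% of all genes did. In breast over lung 0 of 3 changed, where 18.3% of all genes did. None of the 3 was at 0 reads, and their part in the Timeless difference was not tested.

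Nfil3, the repressor that competes with DBP and TEF for D-boxes, had 14.1 to 32.5 CPM in melanoma, 21.5 to 37.2 CPM in breast and 16.03 to 34.2 CPM in lung. It fell in melanoma over breast by 0.71 ± 0.23 (edgeR adjusted p = 0.0256), a call lost without melanoma 1 (adjusted p = 0.0505), 2 (0.0526), 4 (0.0868), 5 (0.0858) or 6 (0.0846) or breast 18 (0.0909). Melanoma 3 had the highest melanoma value, 32.5 CPM, against 14.1 to 16.6 CPM in the other 5. Without the 3 libraries poor in long transcripts the change was -0.88 (adjusted p = 0.00346), and that in melanoma over lung, -0.31 with all libraries (adjusted p = 0.405), was -0.54 and passed (adjusted p = 0.0349), as it did without melanoma 3 alone (adjusted p = 0.0436). Hlf, the third PAR bZIP factor, averaged 132 ± 41.9, 97.5 ± 24.3 and 111 ± 32.7 CPM in melanoma, breast and lung and passed in none of the 3 comparisons, though in melanoma over breast it did without melanoma 3 (0.62, adjusted p = 0.0284). The kinases Csnk1d (170.3, 155 and 178 CPM) and Csnk1e (95.2, 74.7 and 93.4 CPM), which mark PER proteins for breakdown, the F-box gene Fbxl21 (3.72, 3.41 and 4.29 CPM), which acts on cryptochromes, and the clock targets Usp2 (43.4, 33.0 and 42.3 CPM) and Wee1 (27.9, 24.0 and 24.8 CPM) passed in none of the 3 comparisons (means in melanoma, breast and lung; edgeR adjusted p from 0.0919 to 0.928). In melanoma over breast Csnk1e (0.35) passed in 8 of 32 refits, Wee1 (0.22) in 6, Usp2 (0.39) in 5 and Csnk1d (0.13) in 1, each of them without melanoma 3 among these (adjusted p = 0.00519, 0.0286, 0.00671 and 0.0430). Without the 3 libraries poor in long transcripts Csnk1e was 0.32 and Usp2 0.42, and both passed (adjusted p = 0.0124 and 0.0318). In breast over lung, Csnk1e and Usp2 passed without melanoma 3 alone (-0.36 and -0.40, adjusted p = 0.0360 and 0.0474).

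**Figure D5:**
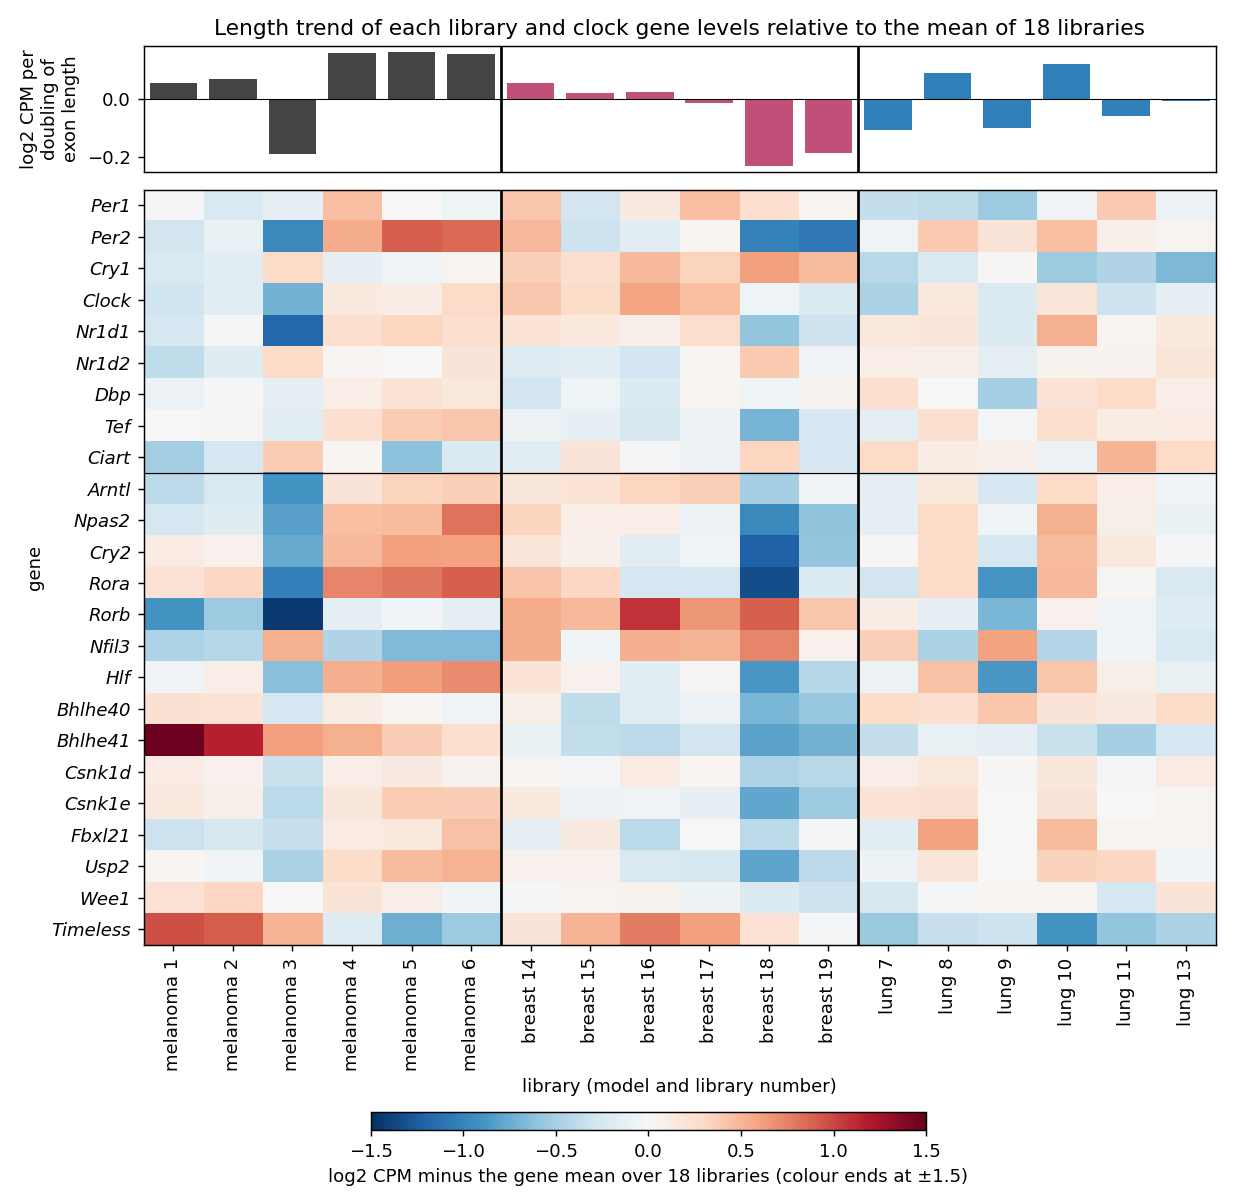
Top: slope of each library's log2 CPM on log2 exon length; bottom: log2 CPM of 9 clock output genes (above the line) and 15 other clock genes minus the gene's mean over 18 libraries, with the colour scale ending at ±1.5. The 3 libraries with slopes of -0.19, -0.23 and -0.19 (melanoma 3, breast 18 and breast 19) are low in Per2, Nr1d1, Npas2 and Cry2 and high in Cry1 relative to the gene's mean, and Cry1 is high in all breast libraries.

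Inputs that are known to reset Per genes were read from 3 further lists. Beside them, 8.51% of all genes tested rose and 14.7% fell in melanoma over lung. In breast over lung 11.2% rose and 7.16% fell, and in melanoma over breast 9.76% rose and 19.2% fell. Of 12 glucocorticoid-responsive genes, 1 rose and 2 fell in melanoma over lung, 2 rose and 1 fell in breast over lung, and 0 rose and 2 fell in melanoma over breast. The 3 that differed most among models were Pdk4, a kinase of pyruvate dehydrogenase (8.16, 9.88 and 34.3 CPM in melanoma, breast and lung), Errfi1, a feedback inhibitor of EGFR (28.8, 92.7 and 57.2 CPM), and Klf15 (28.1, 20.8 and 17.2 CPM). The median of this list was 0.17 in melanoma over lung, 0.11 in breast over lung and -0.22 in melanoma over breast, beside 0.02, -0.02 and 0.04 for all genes. Of 8 activity-induced genes, 0 rose and 4 fell in melanoma over lung, none passed in breast over lung, and 0 rose and 4 fell in melanoma over breast (Fos, Junb, Dusp1 and Btg2 each time), with medians of -0.76, -0.16 and -0.68. Junb had 30.8 CPM in melanoma, 142 CPM in breast and 196 CPM in lung, Btg2 had 11.96, 26.4 and 24.3 CPM, and Dusp1 had 18.9, 40.3 and 43.3 CPM. Per1, which shares CREB control with them, had its highest melanoma value in melanoma 4 (71.9 CPM) and its highest lung value in lung 11 (69.1 CPM), the libraries with the highest activity-induced sums of their models, 576 and 719 CPM. Lung 9, with a sum of 596 CPM, had the lowest Per1 value of all 18 libraries, 35.9 CPM. In breast the highest Per1 value was in breast 17 and the highest sum, 531 CPM, in breast 14. The comparison of Per1 with these sums was chosen after the values were seen.

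Of 9 temperature-linked genes, 2 rose and 1 fell in melanoma over lung, and 4 rose and 0 fell in breast over lung. In melanoma over breast 1 rose and 4 fell, and the medians were 0.03, 0.50 and -0.18 in these comparisons. Among all genes tested 23.2%, 18.3% and 28.9% changed. The cold-inducible Cirbp (medians of 46.9, 47.3 and 47.8 CPM in melanoma, breast and lung) and Rbm3 (medians of 32.6, 48.6 and 41.9 CPM), which follow the daily cycle of body temperature in mice, passed in none of the 3 comparisons (edgeR adjusted p = 0.484 to 0.981). Melanoma 3 stood apart in both, with 103 CPM of Cirbp against 40.5 to 49.0 CPM in the other melanoma libraries, and 141.6 CPM of Rbm3 against 19.5 to 45.4 CPM. The calls lay in heat shock genes, with Hsp90aa1 at 393, 243 and 233 CPM, Hspb1 at 1.98, 9.31 and 5.19 CPM and Hspa1b at 5.34, 17.51 and 7.95 CPM in melanoma, breast and lung. Of 5 markers of the suprachiasmatic nucleus, the central clock of the hypothalamus, 3 passed the filter on low counts. None of these 3 passed the test in any comparison. Avp averaged 19.2, 19.3 and 18.6 CPM and Vip 25.0, 20.6 and 22.02 CPM in melanoma, breast and lung.

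The genes whose profile over the 18 libraries lay closest to that of Dbp, by the root mean square difference of centred log2 CPM, were Vps37d (0.11), Zc4h2 (0.12), Nap1l5 (0.13), Ralyl (0.14) and Inafm1 (0.14). None is a clock gene. The nearest clock gene was Nr1d2, at 0.21 and rank 591 of 13148 candidates. The genes closest to Per1 were Tlnrd1 (0.23), Fra10ac1 (0.23), Zfp689 (0.23), Nectin3 (0.24) and Gm6085 (0.24), and Dbp stood at rank 508, with 0.32.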

How the data were processed

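Directional poly(A)+ libraries were made from 1 tissue sample per brain, per the labels' protocols. The submitters' processing notes name bcl2fastq and GRCm39, and the aligner, counter and annotation are not given in the sources used here. Raw counts per gene and library were deposited by the authors, together with a second table in which they gave CPM on adjusted library sizes. Dividing each CPM by its library's step gave whole reads for 100% of values (tolerance 0.01).

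Exon lengths and symbols followed GENCODE M21 (94.0% of 55416 gene IDs). In edgeR 4.0.16 under R 4.3.3, a robust quasi-likelihood model with 1 coefficient per model was fitted to the 18 libraries after filterByExpr (17174 genes) and TMM scaling, and p-values were Benjamini-Hochberg adjusted over all genes. CPM printed here use the TMM-scaled sizes, and ± after a log2 fold change is its SE. No pair of same-model libraries came under a chi-square of 2.82 per degree of freedom, so none was counted as a repeat. Text names the 10 members, 15 other clock genes (others of the planned list are not reported here), the 3 genes of smallest p per further list, and the 5 profiles nearest to Dbp and to Per1. Members and lists were chosen with earlier results of these data known. Per3, listed at 0, was left out of the day genes, where it had been planned. DESeq2 1.42.0, limma 3.58.1 (voom, and log2 of CPM plus 1), other scalings and filters, and each library left out in turn were alternatives. The fit was tested on simulated data.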

Additional observations from a re-analysis of the deposited data

Results flagged for a closer look

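In 4 of the 72 groups of 6 libraries examined, 1 library lay far from the other 5 (Dixon's test at its 95% critical value), where chance flags about 1 in 20 groups. Per1 was 71.9 CPM in melanoma 4, against 45.1 to 52.6 CPM in the other melanoma libraries. Tef was 158 CPM in breast 18, one of the 3 libraries poor in long transcripts, against 215 to 244 CPM in the other breast libraries. The other 2 were both in melanoma 3, which is also poor in long transcripts, with Nfil3 at 32.5 CPM against 14.1 to 16.6 CPM and Csnk1d at 132 CPM against 173 to 183 CPM. The cause of these values was not tested.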

How the results depend on the processing

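The 3 member changes that passed (Cry1 in 2 comparisons, Tef in 1) kept their direction in 96 of 96 refits and passed in 92 of these. The 4 losses were the 1.5-fold threshold for each, and the 12-library fit for Tef. The other 24 member comparisons passed in 20 of 768 refits. The 8 calls among other clock genes passed in 239 of 256 refits, and the 37 without a call in 45 of 1178. No paired analysis was possible because the models share no library numbers. Trends removed by length or GC, reads recovered from CPM and the changes to the day genes were chosen after seeing the data.

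The count of members changed in melanoma over lung, 0, was 1 with DESeq2 size factors, the DESeq2 test, limma on the deposited CPM, without the 3 libraries poor in long transcripts and with the length trend removed, and 0 to 1 with each library left out in turn. In breast over lung, 1, it was 2 with upper-quartile factors, the DESeq2 test, the 12-library fit, without the 3 libraries and on reads recovered from CPM, 3 with the length trend removed, 0 against 1.5-fold, and 1 to 2 without single libraries. In melanoma over breast, 2, it was 1 in the 12-library fit, 0 against 1.5-fold and 2 to 3 without single libraries. With the length trend removed Tef, Cry1 and Clock passed in that comparison (edgeR adjusted p = 0.0257, 0.00573 and 4.02e-05). In the test among models, 2, it was 4 without the 3 libraries and 1 to 3 without single libraries (1 without lung 8, 10 or 13 or breast 15 or 16). Over the 30 refits of that test 5406 to 8720 of all genes differed. Of all genes, 1897, 1053 and 2218 changed by more than 1.5-fold in melanoma over lung, breast over lung and melanoma over breast, and the last comparison had 4520 to 8078 changed genes without single libraries, 8078 of them without melanoma 3. The day minus late-night difference with Arntl and Npas2 alone was -0.077 in breast over lung and 0.016 in melanoma over breast, over all 18 libraries.

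Signs turned only for changes that had not passed in any direction and lay near 0. In melanoma over lung, Dbp (-0.03) was 0.0074 with DESeq2 size factors, 0.017 with no filter, 0.0076 in the DESeq2 test, 0.030 with limma on CPM, 0.0078 without the 3 libraries and 0.026 with the GC trend removed. Per2 was -0.040 and Npas2 -0.030 under voom, Nr1d2 0.0016 with no filter, and Tef -0.028, Clock -0.12 and Csnk1e -0.052 with the length trend removed. Without the 3 libraries Arntl was 0.060 and Csnk1d 0.010, and in breast over lung Rora was 0.067. In melanoma over breast, Nr1d1 (-0.03) was 0.0075 with DESeq2 size factors, 0.020 with upper-quartile factors, 0.018 with no filter, 0.0076 in the DESeq2 test, 0.012 without the 3 libraries, 0.0035 with the length trend removed and 0.014 on reads recovered from CPM, and Nr1d2 was -0.038 with the length trend removed. Leaving out single libraries gave, in melanoma over lung, Per2 -0.044 to 0.27, Dbp -0.13 to 0.024, Nr1d2 -0.10 to 0.021, Clock -0.027 to 0.15, Arntl -0.16 to 0.060, Npas2 -0.11 to 0.20, Csnk1d -0.079 to 0.011, Csnk1e -0.0100 to 0.12 and Usp2 -0.033 to 0.15. It gave Rora -0.22 to 0.052 and Wee1 -0.13 to 0.00025 in breast over lung, and Nr1d1 -0.062 to 0.17, Nr1d2 -0.013 to 0.20, Arntl -0.19 to 0.023 and Timeless -0.28 to 0.100 in melanoma over breast. The cause of these turns was not tested.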
